A study of Sus scrofa with 6 samples.

Results

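Aminoacyl-tRNA synthetases are the enzymes that join each amino acid to its transfer RNA, and 33 of the 20731 genes in the deposited expression table belong to the set examined here. The members were taken by name: 19 genes for cytosolic enzymes and 16 for mitochondrial ones were listed, and a gene counted when its pig Ensembl identifier carried the listed symbol. Of these, 18 cytosolic and 15 mitochondrial genes had a row. FARSB was matched to no pig identifier and SARS2 to no row, and both were not analysed here. The cells were immature pig Sertoli cells, the somatic cells that nourish developing germ cells. There were 3 Control libraries and 3 MT libraries, the latter from cells given 10 nM of the pineal hormone melatonin for 36 h. The labels give no age of the animals, no genotype beyond the cell name and no solvent or culture time for Control. Nor do they state that the replicates were separate cultures or animals, so the p-values reflect library-to-library spread that may be only technical.

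Most amino acids have a pair of synthetase genes in the nucleus, one for the enzyme of the cytosol, which serves the bulk of protein synthesis, and one for an enzyme imported into mitochondria, which serves the few proteins encoded there. GARS1 and KARS1 are exceptions, since each makes the enzyme of both compartments, and mitochondria make glutaminyl-tRNA from a glutamate charged by EARS2. Several cytosolic synthetases sit in a large multi-synthetase complex, while others work alone. When uncharged tRNA builds up, the kinase GCN2 (gene EIF2AK4) slows translation and raises the transcription factor ATF4, whose known targets include amino acid enzymes, transporters and several cytosolic synthetase genes.

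Values are FPKM, a fragment count divided by gene length and by library size, so levels can be compared between genes as far as the lengths used are right. Each library held 19579279 to 21500665 reads, as recovered from its smallest FPKM values. In each library the cytosolic genes held 1292 to 14701 reads and the mitochondrial genes 184 to 3296. Control 3 stood apart: on the component with 68.2% of the variance over 10950 genes it lay at 40.4. Control 1 and Control 2 lay at -22.0 and -21.7 there, and MT 1 to 3 between them and Control 3, at 7.5, -10.4 and 6.2. Without Control 3 the groups therefore also differ along this component, and a melatonin difference cannot be told apart from it. Control 3 correlated across genes at 0.938 and 0.939 with Control 1 and Control 2 and at 0.952 to 0.975 with the MT libraries. Results are therefore given with and without it. Of 11 Sertoli markers 8 had a row, with a summed level of 27.8 to 34.2 FPKM in Control and 28.1 to 31.5 in MT. WT1 and AMH were at 10.0 to 15.6 FPKM and SOX9 at 1.61 to 2.40, while KITLG and INHA did not exceed 0.10. Of the 5 peritubular myoid markers TAGLN held nearly all of the summed 160.3 to 264.8 FPKM in Control and 161.7 to 194.2 in MT, and ACTA2 did not exceed 0.21. In bulk RNA, fewer cells of a type and less RNA per cell cannot be told apart.

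The cytosolic genes were the more abundant in every library. Their mean levels over the 6 libraries ran from 20.5 FPKM (FARSA) to 214.3 (KARS1), with a median of 61.4. The mitochondrial genes ran from 1.48 FPKM (NARS2) to 24.7 (IARS2), with a median of 6.25. Summed over its 18 genes, the cytosolic set stood at 1203.9, 1245.3 and 1217.6 FPKM in Control 1 to 3 and at 1509.0, 1571.6 and 1430.3 in MT 1 to 3. All 3 MT sums lay above all 3 Control sums. The mitochondrial set, summed over 15 genes, stood at 117.7, 123.2 and 131.9 FPKM in Control and at 118.8, 115.8 and 121.8 in MT, where the groups overlapped. The cytosolic sum was 9.23 to 10.2 times the mitochondrial one in Control and 11.7 to 13.6 times in MT. That sum includes GARS1 and KARS1, which make the enzyme of both compartments and had the highest means (152.2 and 214.3 FPKM over 6 libraries). The 10 cytosolic genes whose own values overlapped between groups summed to 537.2 to 562.0 FPKM in Control and 562.4 to 606.6 in MT, a split that the values themselves define.

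**Figure D1:**
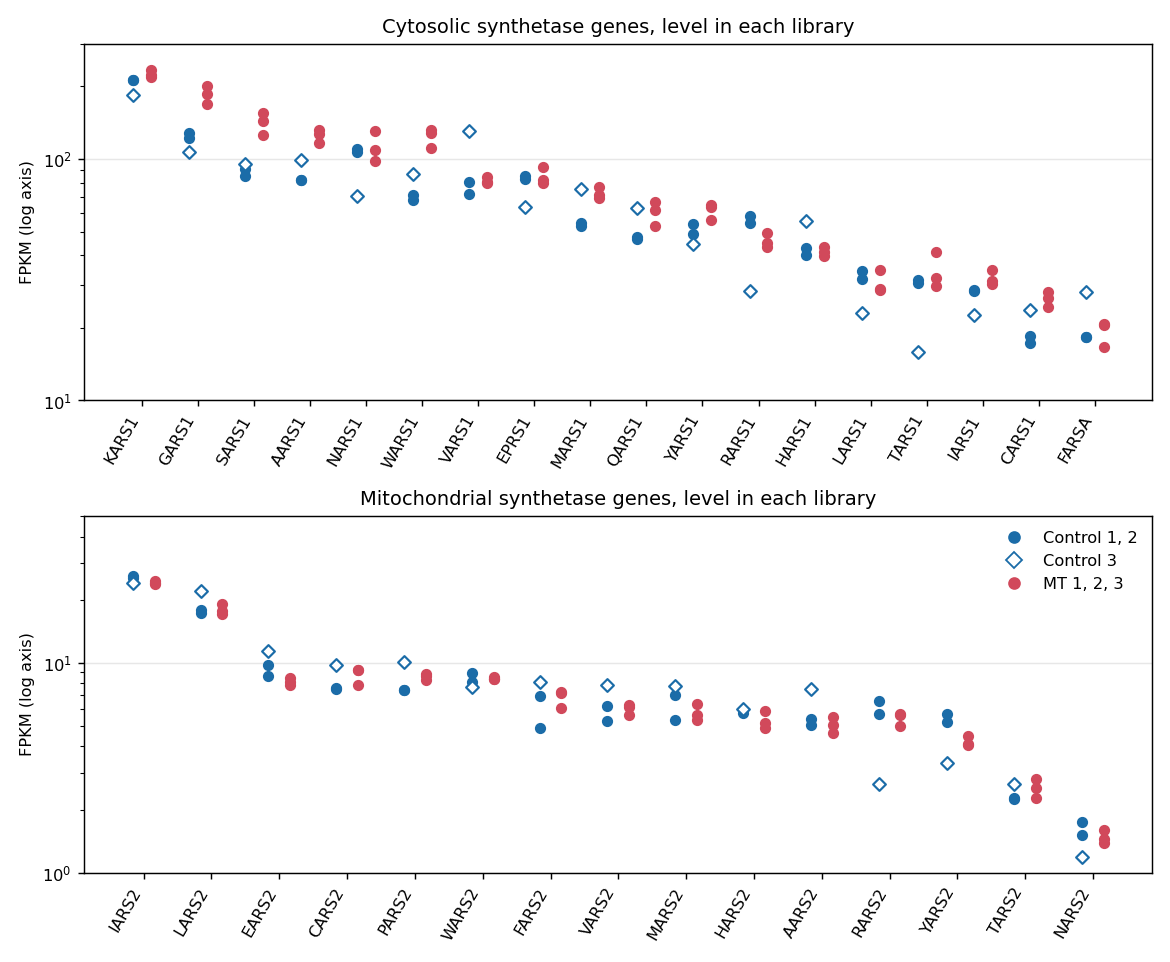
FPKM of each synthetase gene in each library on a log axis, with cytosolic genes above and mitochondrial genes below, each ordered by mean level; points are single libraries and Control 3 has an open diamond. KARS1 leads the cytosolic set at a mean of 214.3 FPKM and IARS2 the mitochondrial set at 24.7, and the MT points of WARS1, SARS1, GARS1 and AARS1 stand clear of the Control points.

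MT was compared with Control gene by gene on log2(FPKM + 1), with p-values adjusted over all 10950 genes whose mean reached 1 FPKM, and all 33 members passed that filter. With 6 libraries 0 of the 33 passed an adjusted p of 0.05 in limma, as was true of 0% of all tested genes. At an unadjusted p under 0.05 stood 6 of the 18 cytosolic genes, all higher in MT, and 0 of the 15 mitochondrial ones, beside 517 of the 10950. The same test by limma voom on recovered read numbers also passed 0 genes. With libraries weighted by their scatter, which gave Control 3 a weight of 0.052, 8 cytosolic genes passed as higher and 2 as lower (LARS1 and RARS1), and 7 mitochondrial genes passed, 3 higher and 4 lower, beside 6309 of all tested genes. The MT values lay above all Control values in 8 of 18 cytosolic genes (AARS1, CARS1, GARS1, IARS1, KARS1, SARS1, WARS1 and YARS1) and in 0 of 15 mitochondrial genes, where 6.24% of all tested genes did so. They lay below all Control values in 0 cytosolic genes and 1 mitochondrial gene (EARS2), where 4.99% of all tested genes did so. The median log2 difference was 0.26 over the cytosolic genes, with 15 higher and 3 lower, and -0.06 over the mitochondrial genes, with 7 higher and 8 lower. Over all tested genes it was 0.02, with 6128 higher and 4822 lower. The difference between the compartments has no p-value, because the members were chosen with earlier results of these libraries known.

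Without Control 3, 6 of the 18 cytosolic genes rose at an adjusted p of 0.05 in limma (WARS1, SARS1, AARS1, GARS1, CARS1 and MARS1), against 4.28% of all tested genes that rose. No cytosolic gene fell, against 6.62% of all tested genes. Among the mitochondrial genes 0 passed in either direction. At an unadjusted p under 0.05 in limma stood 1 (PARS2) higher and 1 (YARS2) lower, beside 3966 of the 10950 tested genes. The cytosolic median was then 0.14 and the mitochondrial one -0.04. The same 6 cytosolic genes passed without Control 3 after quantile normalisation, where the median was 0.12 over the cytosolic and 0.01 over the mitochondrial genes, and after median-ratio scaling. By voom on recovered reads without Control 3, QARS1 also rose and RARS1 and the mitochondrial YARS2 fell. Of the 10950 tested genes 908 rose and 1459 fell by voom. Leaving out any other library passed 0 genes. Of all calls without Control 3, 39.3% were upward as deposited, 44.0% after median-ratio scaling and 49.7% after quantile normalisation.

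**Figure D2:**
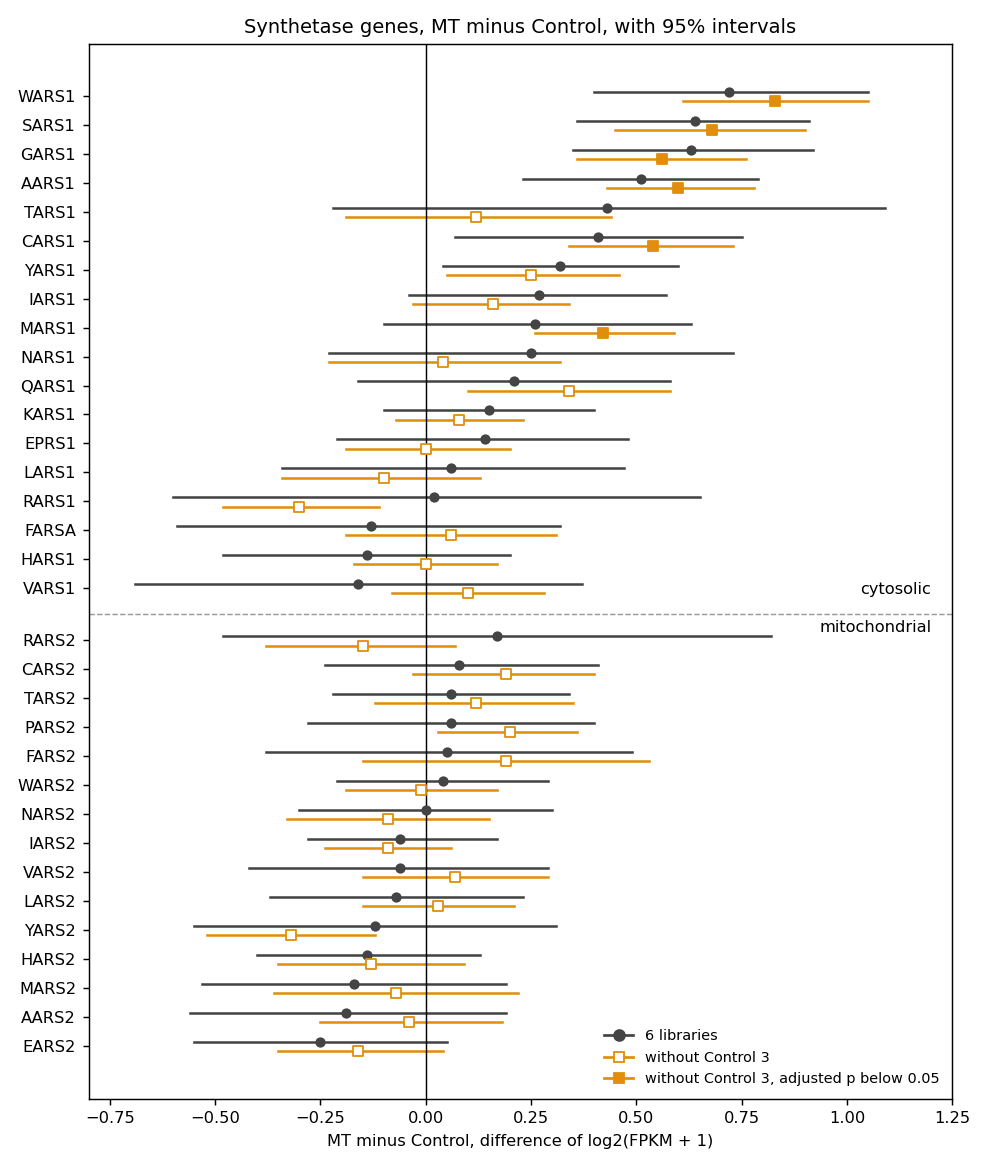
MT minus Control on log2(FPKM + 1) for each synthetase gene with its 95% interval in limma, over 6 libraries (grey circles) and without Control 3 (orange squares, filled where the adjusted p was below 0.05). The 6 filled squares are all cytosolic, and the mitochondrial estimates over 6 libraries lie between -0.25 and 0.17.

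WARS1, which charges tryptophan and is also known as an interferon-induced gene, had the largest difference of the set. It stood at 67.4, 70.9 and 86.9 FPKM in Control 1 to 3 and at 128.9, 132.5 and 110.7 in MT 1 to 3. Every MT library was well above every Control library, and Control 3 was the Control nearest to MT. The log2 difference was 0.72 (SE 0.14, n = 3 per group, adjusted p 0.352 in limma) over 6 libraries and 0.83 (SE 0.09, adjusted p 0.0147), or 1.78-fold, without Control 3. The gene (ENSSSCG00000002516) lies on chromosome 7 from 121212981 to 121238144 of the Sscrofa11.1 assembly. WARS2, the mitochondrial partner, stood at 8.93, 8.10 and 7.66 FPKM in Control and at 8.39, 8.61 and 8.36 in MT. Its groups overlapped, with a log2 difference of 0.04 (95% interval -0.21 to 0.29).

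SARS1, which joins serine to its tRNAs and to the tRNA later used for selenocysteine, stood at 85.2, 90.9 and 95.9 FPKM in Control and at 143.9, 155.2 and 126.2 in MT. The log2 difference was 0.64 (SE 0.12, adjusted p 0.327 in limma) and 0.68 (SE 0.10, adjusted p 0.0239) without Control 3. It had the smallest p of the set over 6 libraries, in place 34 of the 10950 tested genes. SARS1 (ENSSSCG00000006835) lies on chromosome 4 from 110857067 to 110874712.

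GARS1, the glycyl enzyme of both compartments, stood at 122.6, 127.9 and 106.9 FPKM in Control and at 186.0, 200.5 and 169.5 in MT. Here Control 3 was the Control farthest from MT, the reverse of its place in WARS1 and SARS1. The log2 difference was 0.63 (SE 0.12, adjusted p 0.352 in limma) and 0.56 (SE 0.08, adjusted p 0.0251) without Control 3. GARS1 (ENSSSCG00000016677) lies on chromosome 18 from 42311711 to 42352201.

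AARS1, which charges alanine and removes serine and glycine joined by mistake, stood at 82.0, 81.7 and 99.2 FPKM in Control and at 126.9, 131.7 and 116.1 in MT. The groups did not overlap. The log2 difference was 0.51 (SE 0.12, adjusted p 0.536 in limma) and 0.60 (SE 0.07, adjusted p 0.0183) without Control 3. AARS1 (ENSSSCG00000002723) lies on chromosome 6 from 13298336 to 13321423. Its mitochondrial partner AARS2 stood at 5.39, 5.05 and 7.48 FPKM in Control and at 5.50, 4.64 and 5.07 in MT, with a log2 difference of -0.19 (95% interval -0.56 to 0.19). Control 3 was the highest library for AARS2, and the other 5 lay between 4.64 and 5.50.

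CARS1, the cysteinyl enzyme, is one of the less abundant cytosolic genes. It stood at 18.5, 17.3 and 23.6 FPKM in Control and at 28.2, 26.6 and 24.4 in MT. The groups did not overlap, but Control 3 came close to the lowest MT library. The log2 difference was 0.41 (SE 0.14, adjusted p 0.912 in limma) and 0.54 (SE 0.08, adjusted p 0.0251) without Control 3. CARS1 (ENSSSCG00000012857) lies on chromosome 2 from 2119576 to 2163378. CARS2 stood at 7.61, 7.54 and 9.72 FPKM in Control and at 9.28, 7.87 and 9.22 in MT. Control 3 was its highest library, and its difference was 0.08 over 6 libraries and 0.19 (adjusted p 0.177) without Control 3.

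YARS1, the tyrosyl enzyme, stood at 48.8, 53.6 and 44.4 FPKM in Control and at 63.4, 64.5 and 56.0 in MT. The groups did not overlap, but the gene passed in neither fit, with log2 differences of 0.32 (SE 0.12, adjusted p 0.942 in limma) and 0.25 (SE 0.09, adjusted p 0.0864) without Control 3. Its partner YARS2 stood at 5.24, 5.72 and 3.33 FPKM in Control and at 4.06, 4.47 and 4.09 in MT. MT lay between Control 3 and the other Control libraries. The YARS2 difference was -0.12 over 6 libraries and -0.32 (adjusted p 0.0541) without Control 3.

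The 7 members of the multi-synthetase complex (EPRS1, IARS1, KARS1, LARS1, MARS1, QARS1 and RARS1) had a median log2 difference of 0.15, against 0.41 for the 11 cytosolic genes outside it, and without Control 3 the medians were 0.08 and 0.25. On log2(FPKM + 1) without Control 3, MARS1 passed among the 7 of the complex, beside 5 of the 11 others, all higher. Of all tested genes 4.28% rose and 6.62% fell in that fit. By voom QARS1 (higher) and RARS1 (lower) of the complex passed too, where 2367 of the 10950 tested genes passed. Whether the groups differ was not tested. The complex genes summed to 511.9, 520.0 and 459.4 FPKM in Control and to 544.8, 552.7 and 556.0 in MT, while those outside summed to 692.0, 725.3 and 758.2 in Control and to 964.1, 1019.0 and 874.3 in MT. In both sets the MT sums stood above the Control sums. MARS1, which charges methionine for initiation as well as elongation, stood at 53.0, 54.2 and 75.3 FPKM in Control and at 76.5, 69.3 and 71.2 in MT. Control 3 lay inside the MT range, so the call rests on Control 1 and Control 2. The difference was 0.26 (SE 0.15, adjusted p 1.0 in limma) over 6 libraries and 0.42 (SE 0.07, adjusted p 0.0262) without Control 3. In the RefSeq table MARS1 (chromosome 5, 22752405 to 22785509) overlaps DDIT3 and ARHGAP9, and the strand setting of the counting is not given in the sources used here, so its reads are less certain. DDIT3 itself was at 0.27 to 0.75 FPKM, on 5 to 14 reads. It was not tested, and the overlap makes its reads less certain too.

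IARS1, the isoleucyl enzyme, stood at 28.5, 28.7 and 22.7 FPKM in Control and at 30.3, 34.7 and 31.3 in MT. KARS1, the lysyl enzyme of both compartments and the most abundant of all synthetase genes here, stood at 213.7, 212.4 and 183.8 FPKM in Control and at 222.9, 219.4 and 233.8 in MT. The MT values were higher in both genes without overlap, by small margins. IARS1 had a log2 difference of 0.27 (SE 0.13, adjusted p 1.0 in limma) and KARS1 of 0.15 (SE 0.11, adjusted p 1.0), and without Control 3 these were 0.16 and 0.08. EPRS1, a single protein that charges both glutamate and proline, stood at 83.1, 85.2 and 63.3 FPKM in Control and at 81.7, 92.6 and 79.3 in MT. RARS1, the arginyl enzyme, stood at 54.4, 58.4 and 28.5 FPKM in Control and at 43.2, 49.2 and 45.0 in MT. For EPRS1 and RARS1 Control 3 was the lowest library, and the other Control libraries of RARS1 lay above MT. The RARS1 difference was 0.02 over 6 libraries and -0.30 (SE 0.08, adjusted p 0.0546 in limma) without Control 3. QARS1, the glutaminyl enzyme, ran from 46.6 to 62.7 FPKM in Control and from 52.6 to 66.5 in MT, and its difference without Control 3 was 0.34 (adjusted p 0.0653). LARS1, the leucyl enzyme, which also reports leucine to the mTORC1 pathway, ran from 23.1 to 34.4 FPKM in Control and from 28.8 to 34.8 in MT.

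The remaining cytosolic genes overlapped between groups. TARS1, the threonyl enzyme, stood at 30.8, 31.6 and 15.9 FPKM in Control and at 32.1, 41.3 and 29.7 in MT. In the RefSeq table TARS1 overlaps LOC100738904, so its reads are less certain. Its log2 difference of 0.43 (SE 0.28) over 6 libraries came with a low Control 3 and was 0.12 (SE 0.13) without that library. HARS1, the histidyl enzyme, stood at 40.0, 42.7 and 55.6 FPKM in Control and at 41.3, 39.5 and 43.2 in MT, where Control 3 alone stood apart. NARS1, the asparaginyl enzyme, ran from 70.5 to 109.9 FPKM in Control and from 98.2 to 130.3 in MT. FARSA, the alpha subunit of the phenylalanyl enzyme, ran from 18.3 to 28.1 FPKM in Control and from 16.6 to 20.8 in MT. VARS1, the valyl enzyme, ran from 71.4 to 131.4 FPKM in Control, with Control 3 at the top, and from 79.6 to 84.1 in MT. The differences of FARSA and VARS1 were -0.13 and -0.16 over 6 libraries and turned to 0.06 and 0.10 without Control 3.

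Control 3 had no common direction among the cytosolic genes. It lay above both other Control libraries in 9 cytosolic genes and below both in the other 9, with deviations from their mean between -0.96 (RARS1) and 0.78 (VARS1) on log2(FPKM + 1). Among the mitochondrial genes it lay above both in 10 and below both in 5, between -0.97 (RARS2) and 0.45 (AARS2). The arginyl enzymes thus had the largest downward deviation of both sets in Control 3. Of the 6 genes that rose without it, Control 3 lay toward MT in WARS1, SARS1, AARS1, CARS1 and MARS1 and away from MT in GARS1.

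On log2(FPKM + 1) without library weights, 0 of the 15 mitochondrial genes passed in limma, over 6 libraries or without Control 3. EARS2, the glutamyl enzyme, was the one gene whose MT values all lay below Control, with 8.65, 9.80 and 11.4 FPKM in Control against 8.46, 8.14 and 7.88 in MT. The gap between the nearest Control and MT libraries was small, and the log2 difference of -0.25 (SE 0.13, adjusted p 1.0 in limma) was -0.16 (adjusted p 0.205) without Control 3. HARS2, the histidyl enzyme, stood at 5.80, 5.96 and 6.02 FPKM in Control and at 4.87, 5.17 and 5.91 in MT, with a difference of -0.14. MT 3 lay within the Control range and the other MT libraries below it. MARS2, the methionyl enzyme, stood at 5.33, 7.01 and 7.77 FPKM in Control and at 5.33, 5.66 and 6.39 in MT. RARS2, the arginyl enzyme, stood at 5.73, 6.61 and 2.66 FPKM in Control and at 4.99, 5.64 and 5.70 in MT. Control 3 held only 184 reads of RARS2, the fewest of any member in any library, and its difference of 0.17 turned to -0.15 without that library. IARS2, the isoleucyl enzyme, stood at 25.5, 26.0 and 24.1 FPKM in Control and at 23.9, 24.6 and 23.8 in MT, the most even of the mitochondrial genes, with a difference of -0.06 (95% interval -0.28 to 0.17). TARS2, the threonyl enzyme, stood at 2.26, 2.24 and 2.65 FPKM in Control and at 2.80, 2.26 and 2.53 in MT, which overlapped throughout.

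The other mitochondrial genes also overlapped. LARS2 ran from 17.2 to 21.9 FPKM in Control and from 17.1 to 19.1 in MT, and PARS2, the prolyl enzyme, from 7.39 to 10.1 and from 8.33 to 8.85. FARS2 ran from 4.87 to 8.12 FPKM in Control and from 6.08 to 7.28 in MT, VARS2 from 5.27 to 7.84 and from 5.65 to 6.33, and NARS2 from 1.19 to 1.75 and from 1.38 to 1.59. The MT range lay inside the Control range in 4 of these 5 genes, and in LARS2 it reached just below it. In the RefSeq table EARS2, IARS2, TARS2, WARS2 and YARS2 overlap a neighbouring gene, and with the strand setting not given their reads are less certain. A p that misses the threshold does not show that a level was the same: the 95% intervals over 6 libraries reached from -0.56 (AARS2) to 0.82 (RARS2).

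Set beside its mitochondrial partner in the same library, the cytosolic gene was the higher in all 6 libraries for 14 of 15 pairs, EPRS1 being counted with both EARS2 and PARS2. The exception was IARS1 with IARS2, near equal at a ratio of 1.12, 1.11 and 0.942 in Control and 1.27, 1.41 and 1.31 in MT. The widest gap was NARS1 over NARS2, with a mean ratio of 64.3 ± 6.05 in Control and 76.0 ± 5.63 in MT (SD, n = 3). The size of a ratio depends on the gene lengths used. As recovered, these were 10845 bases for IARS1 and 6337 for IARS2, and 3099 for NARS1 and 12339 for NARS2. The log2 difference of MT and Control was larger in the cytosolic partner in 11 of 15 pairs over 6 libraries. It was larger in 11 without Control 3 as well, but not in the same ones: the pairs of HARS1 and VARS1 joined, and LARS1 over LARS2 and EPRS1 over PARS2 left. The ratio was higher in all MT than in all Control libraries in 8 pairs, lower in 1 (RARS1 over RARS2) and overlapping in 6. Without Control 3 it was higher in 9 pairs and lower in 2, RARS1 over RARS2 and EPRS1 over PARS2. No share over other gene pairs was computed to set beside these counts. AARS1 over AARS2 went from 15.2, 16.2 and 13.3 in Control to 23.1, 28.4 and 22.9 in MT. WARS1 over WARS2 went from 7.55, 8.75 and 11.4 in Control to 15.4, 15.4 and 13.3 in MT. MARS1 over MARS2, whose cytosolic levels overlapped, went from 9.94, 7.74 and 9.69 in Control to 14.4, 12.2 and 11.1 in MT. In that ratio Control 3 stood among the other Control libraries, whereas in MARS1 alone it stood among MT. RARS1 over RARS2 went from 9.48, 8.83 and 10.8 to 8.65, 8.73 and 7.90, the one pair with the MT ratios below all Control ratios.

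**Figure D3:**
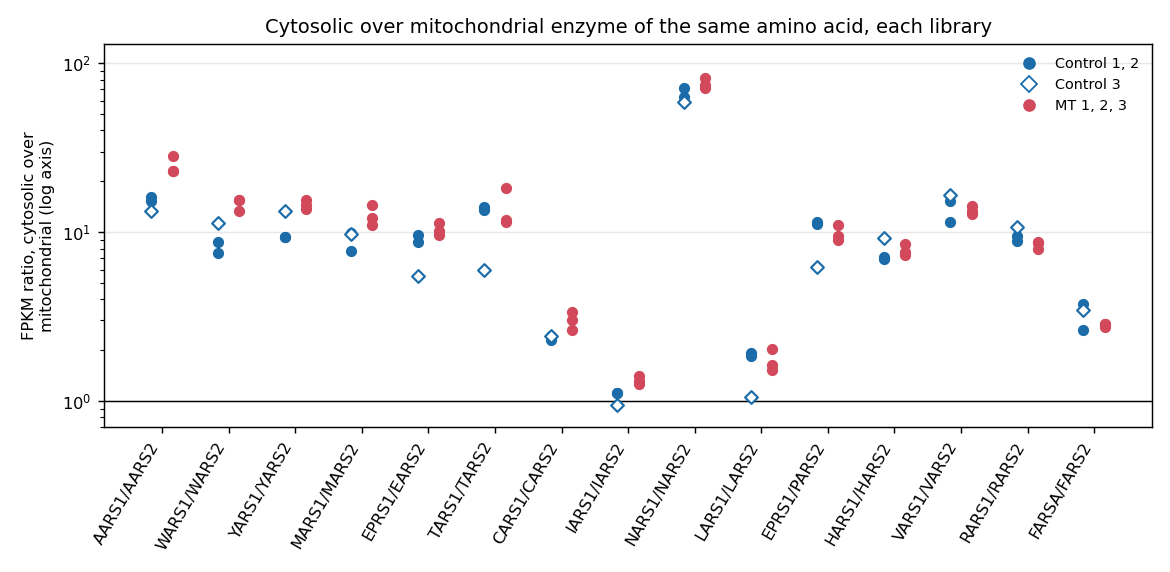
Ratio of the FPKM of the cytosolic gene to that of the mitochondrial gene of the same amino acid in each library, on a log axis, ordered by the log2 difference of cytosolic minus mitochondrial; points are single libraries and the line marks a ratio of 1. The ratio of AARS1 to AARS2 is 13.3 to 16.2 in Control and 22.9 to 28.4 in MT, and only IARS1 with IARS2 falls below 1 in a library.

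Synthetases fall into classes I and II by the fold of their catalytic domain, and the classes were not tested against each other. The 10 cytosolic class I genes had a median log2 difference of 0.24 over 6 libraries and the 8 class II genes one of 0.34. EPRS1 was counted in class I for its glutamate part, although its proline part is class II. Without Control 3 the order turned, at 0.21 and 0.10, and 3 genes rose in each class, beside 4.28% of all tested genes. The 9 mitochondrial class I genes had a median of -0.06 and the 6 class II genes one of 0.03.

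Among other genes of the pathway, the list linked to ATF4 had the largest median difference. The MT values lay above all Control values in 13 of 21 tested genes and below in 1, beside 6.24% and 4.99% of all tested genes. The median log2 difference was 0.50. Without Control 3, 13 rose and 0 fell, beside 4.28% and 6.62% of all tested genes, and the median was 0.59. This list was chosen with its earlier results known. PCK2, the mitochondrial PEP carboxykinase, stood at 27.6, 29.7 and 44.3 FPKM in Control and at 83.5, 79.6 and 67.9 in MT. Its difference was 1.19 (SE 0.19, adjusted p 0.293 in limma) over 6 libraries and 1.39 (SE 0.10, adjusted p 0.00332) without Control 3. NUPR1, PHGDH and ASNS, a stress protein and the enzymes that start serine synthesis and make asparagine, had differences of 1.12, 1.16 and 1.07, larger than any synthetase gene. CEBPB, a transcription factor that can pair with ATF4, had MT values below all Control values, at 111.4 to 205.3 FPKM in Control and 99.8 to 104.9 in MT. ATF4 itself had no row and was not analysed here. The sensors of uncharged tRNA overlapped: EIF2AK4 stood at 7.36, 6.96 and 5.62 FPKM in Control and at 7.28, 6.98 and 7.79 in MT, and its partner GCN1 at 36.3, 37.3 and 50.4 and at 38.0, 35.9 and 40.4. IMPACT, which restrains GCN2, had a difference of 0.06 (SE 0.28).

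Few partner genes of the synthetases passed the test, in limma without Control 3, where 4.28% of all tested genes rose and 6.62% fell. The partner genes that passed were lower in MT. Of the scaffolds that hold the multi-synthetase complex, EEF1E1 stood at 9.49, 9.94 and 9.29 FPKM in Control and at 7.26, 7.55 and 7.68 in MT, and fell without Control 3 (-0.34, adjusted p 0.0396 in limma). AIMP2 stood at 7.79, 7.93 and 11.1 FPKM in Control and at 7.30, 6.71 and 6.85 in MT, also without overlap, but passed in neither fit. AIMP1 and EEF1B2, the latter a subunit of the factor that reloads elongation factor 1A, overlapped, with Control 3 the lowest library in both. Of the 9 tested helpers of mitochondrial charging and translation 0 passed in either fit, and the median was -0.02 over 6 libraries and -0.16 without Control 3. QRSL1, part of the amidotransferase that finishes mitochondrial glutaminyl-tRNA after EARS2, stood at 13.7, 13.7 and 10.9 FPKM in Control and at 12.0, 11.6 and 12.9 in MT. The initiation factors MTIF2 and MTIF3 had differences of 0.15 and -0.04, and TRNT1, which adds the CCA end to tRNAs, one of 0.06. Of 3 tested editing genes DTD2, which removes D-amino acids from tRNA, fell without Control 3 (-0.44, adjusted p 0.0346), at 3.68 FPKM in Control 3 against 7.75 to 8.70 in the other Control libraries and 5.58 to 6.18 in MT. AARSD1 and DTD1 had differences of -0.13 and -0.04.

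WARS1 is the synthetase known to respond to interferon, so other interferon-induced genes were set beside it. Of 7 tested, 0 passed in either fit, where 4.28% of all tested genes rose and 6.62% fell without Control 3. The MT values lay above all Control values in 0 and below in 2, beside 6.24% and 4.99% of all tested genes. The median difference was -0.05. IRF1 stood at 30.6, 32.5 and 43.3 FPKM in Control and at 29.2, 26.2 and 27.7 in MT, and GBP1 at 1.45, 1.71 and 1.57 and at 1.08, 1.02 and 1.07. In both genes the MT values lay below all Control values, whereas in WARS1 they lay above. A role of interferon was not tested. PSMB9, a subunit of the immunoproteasome, overlapped, with 24.2 to 36.2 FPKM in Control and 22.5 to 25.4 in MT.

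**Figure D4:**
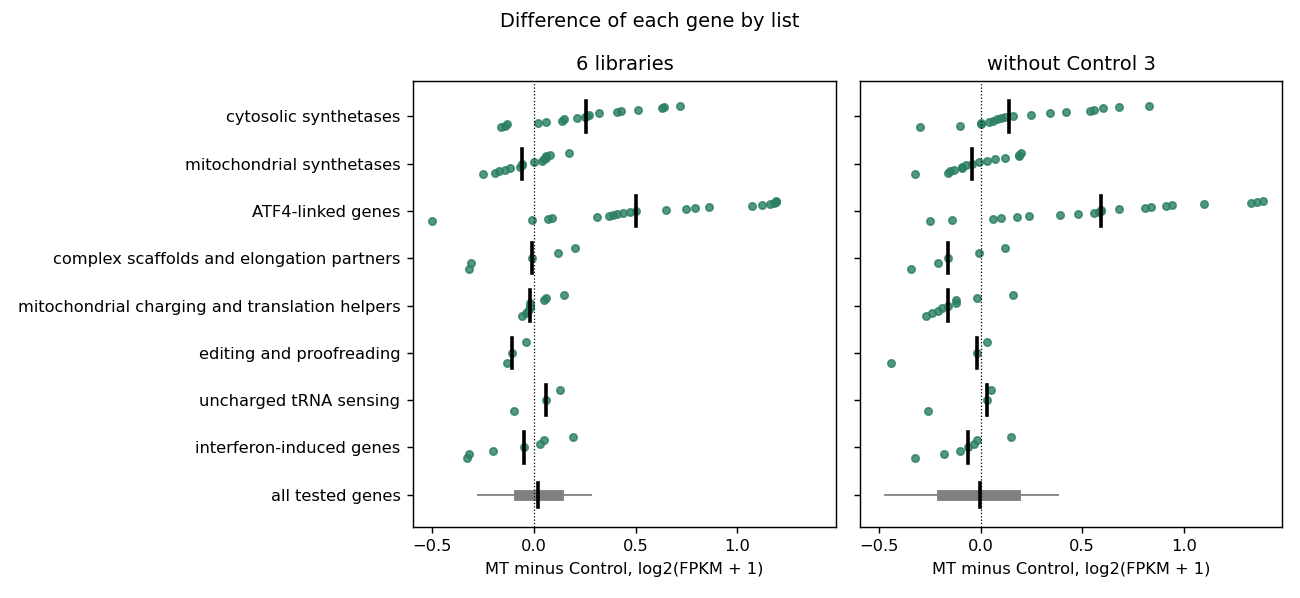
MT minus Control on log2(FPKM + 1) for each tested gene by list, over 6 libraries (left) and without Control 3 (right); green points are genes, black bars are list medians, and the bottom row gives the median, the middle 50% (thick) and the middle 90% (thin) of all 10950 tested genes. The ATF4-linked genes have a median of 0.50 over 6 libraries and the cytosolic synthetases one of 0.26, while the mitochondrial synthetases and the remaining lists lie around 0.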

How the data were processed

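The deposited table holds FPKM per gene and library, which the authors scaled to gene length and library size, with 1 column per library. Per the submitters' processing notes, bcl2fastq, HISAT2, featureCounts and Subread were used with the build Sscrofa11.1. Their versions, the annotation release, the strand setting and any filters are not stated. FPKM is relative to each library's total, so a change in abundant transcripts shifts every other gene.

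Symbols were matched by Ensembl identifier (13173 of 20731 genes, 63.5%), and positions by symbol from the RefSeq table of Sscrofa11.1, for 32 of 33 members. Reads were recovered from the steps of low FPKM values: all 10950 tested genes came out within 0.01 of a whole number, and genes held 99.6% of each total, though true reads could be a whole multiple of these. The comparison used limma 3.58.1 in R 4.3.3 on log2(FPKM + 1) for genes averaging 1 FPKM or more, with a variance trend, group as the only term and two-sided p-values adjusted by Benjamini-Hochberg over all tested genes (threshold 0.05). Differences on this scale understate low genes. Tables and plots used Python 3.11.15, numpy 2.4.6, pandas 2.3.3 and matplotlib 3.10.9. The model was tested on simulated data with independent noise in each gene and library. No simulated library stood apart as Control 3 does, so that test does not cover such a case.

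The members and lists were chosen with earlier results of these data known. Values in every library are given for the 10 cytosolic and 8 mitochondrial genes with the smallest p and their partners, and values for up to 4 such genes of each other list. CEBPB, DDIT3 and the marker genes were named after their values were seen, and the split into classes I and II was added then. Alternatives were the pseudocount, the filter, the scaling, the variance trend, sample weights, a replicate block, voom on recovered reads and leaving out each library. Rescaling or voom without Control 3 was added after seeing the data.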

Additional observations from a re-analysis of the deposited data

How the results depend on the processing

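The depth limits single genes little, since the fewest reads of a member in a library were 184, and with 3 libraries a group the spread between them sets the precision. Pseudocount, filters, quantile or median-ratio scaling, no variance trend and voom, each with all 6 libraries, passed 0 genes in limma and kept the medians of both compartments on their side of 0, with NARS2 (0.00) turning to -0.05 by quantile and -0.01 by median-ratio scaling. Weighting libraries by their scatter (0.052 for Control 3) passed 6309 genes, among them 10 of the 18 cytosolic and 7 of the 15 mitochondrial members. The cytosolic median was then 0.11, the mitochondrial one 0.01 and the gap between them 0.11, and the cause was not tested. Under these weights the sign turned in EPRS1 (-0.04), FARSA (0.13), LARS1 (-0.20), NARS1 (-0.01), RARS1 (-0.37), VARS1 (0.07), AARS2 (0.05), LARS2 (0.01), NARS2 (-0.14), RARS2 (-0.26) and VARS2 (0.16).

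With 1 library left out, rescaled or by voom in the case of Control 3, 0 to 2367 genes passed, all counts above 0 being without Control 3: 1194 as deposited, 1333 by quantile, 1267 by median-ratio scaling and 2367 by voom. The cytosolic median ran from 0.12 to 0.28, the mitochondrial one from -0.05 to 0.01 and the gap from 0.11 to 0.33. Of 297 single-gene values 46 turned sign, in 16 genes. Their ranges were -0.04 to 0.21 for EPRS1, -0.23 to 0.07 for FARSA, -0.23 to 0.00 for HARS1, -0.12 to 0.17 for LARS1, -0.01 to 0.36 for NARS1, -0.30 to 0.21 for RARS1 and -0.34 to 0.10 for VARS1. For mitochondrial genes they were -0.28 to 0.01 for AARS2, -0.13 to 0.23 for FARS2, -0.14 to 0.04 for LARS2, -0.14 to 0.08 for NARS2, -0.01 to 0.23 for PARS2, -0.18 to 0.38 for RARS2, -0.18 to 0.11 for VARS2, -0.01 to 0.09 for WARS2 and -0.38 to 0.00 for YARS2. The 6 genes that rose without Control 3 were higher in MT with any 1 library left out. They were chosen by 1 of these fits, and the fits share most libraries, so this is no separate support. As deposited, 13 to 15 of the 18 cytosolic genes were higher in each such fit.

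The labels number the replicates in both groups, and same-numbered libraries deviated together at -0.44, 0.63 and 0.34. With 3 libraries a group and Control 3 apart, these values cannot decide whether the numbers mark pairs. The main comparison did not take them as pairs. With a replicate block 0 genes passed (499 at an unadjusted p under 0.05), the cytosolic median stayed at 0.26, the mitochondrial one at -0.06 and the gap at 0.31.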

Other observations

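Markers of other cell types were measured at different levels. CYP11A1 and STAR, of steroid synthesis, were at 1.46 to 2.68 FPKM, while CYP17A1 of the same list did not exceed 0.03. Of the germ cell markers, DDX4 did not exceed 0.03 and UCHL1 was at 0.66 to 1.35 FPKM. Of the endothelial markers, CDH5 did not exceed 0.01 and PECAM1 was at 0.15 to 0.31 FPKM. CD14 and CD68, found in macrophages and other cells, were at 6.21 to 8.30 and 3.18 to 5.30 FPKM, and CD68 was higher in all MT than in all Control libraries without passing in either fit. In the same immune list CSF1R did not exceed 0.05 and CD3E was at 0.24 to 0.46 FPKM.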
